A study of Mus musculus with 4 samples.

Results

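Hox cluster genes were compared between 2 epithelial structures of the fetal mouse kidney, the cortical collecting duct and the loop of Henle anlage. The members were all probe sets whose single platform gene symbol names a gene of the HoxA, HoxB, HoxC or HoxD cluster. They numbered 48 of 45037 probe sets and stood for 33 of 18193 genes. Hox genes with no probe set of their own are not analysed here.

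Both structures came from wild-type fetuses of the CD-1 strain at E15.5 (Theiler stage 23), and their sex was unknown. They were cut from stained frozen sections with a laser. RNA was amplified over 2 rounds and hybridised to oligonucleotide arrays, 1 for the cortical collecting duct (replicate 3) and 3 for the anlage of the loop of Henle (replicates 1 to 3, called anlage arrays 1 to 3). Each array held a pool of approximately 50 sections from 5 kidneys, and nothing says whether pools shared animals. The p-values measure the spread between these pools, which may be technical, and that spread came from the anlage alone.

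Hox genes encode homeodomain transcription factors that give cells their position along the body axis. Within a cluster the genes are numbered in order, low numbers being used towards the head and high numbers towards the tail, and genes of one number in different clusters are paralogs that often share a function. In the kidney the group 11 genes Hoxa11 and Hoxd11 act, with their HoxC paralog, in the mesenchyme that forms nephrons, where they work with Eya1 and Six2 and are needed for Gdnf expression. Hoxb7 is a gene of the ureteric lineage, and its promoter is widely used to drive transgenes in the ureteric bud and collecting duct.

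The captured structures carried the markers of their labels, anlage array 2 less clearly than the other anlage arrays. All 13 tested markers of the collecting duct were higher in the collecting duct, 12 of them above all 3 anlage arrays, and all 12 loop of Henle markers lay below all 3 anlage arrays. The summed signal of the loop markers was 49331 in anlage array 2, against 170756 and 119937 in arrays 1 and 3. That of the collecting duct markers was 63595 in array 2, against 29773 and 19458 in arrays 1 and 3. Over all 12642 genes tested, limma called 0 genes at an adjusted p of 0.05 (0% of genes), while 431 genes (3.41%) had an unadjusted p under 0.05. Gapdh signal from the 3' end over that from the 5' end, a ratio raised by short or degraded RNA, was 12.05 in the collecting duct and 10.3, 54.1 and 26.0 in anlage arrays 1, 2 and 3. The summed signal of the 14 interstitial stroma markers was 199687 in the collecting duct and ran from 151943 to 388116 in the anlage. That of the 11 cap mesenchyme and Hox11 partner genes with a probe set was 30914, against 30667 to 57800. It includes Cited1, which was below the limit of testing. That of the 10 endothelium markers was 5162, against 8711 to 19264, and includes Pecam1 and Tie1, both below that limit. All 10 proximal tubule markers were lower in the collecting duct, 7 of them below all anlage arrays. Over all tested genes, 17.3% lay above all 3 anlage arrays and 24.3% below them. The part of these cell types in the Hox values was not tested.

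No Hox gene was called different, and for most of them the collecting duct value fell among the anlage values. Values are on the scale log2(normalized signal + 109.6), on which a difference of 1 is a 2-fold change, and on which a fold understates the change of a dim gene. Of 33 Hox genes, 25 had a mean over the 4 arrays of at least 8.416, the limit below which genes were not tested, or 75.8% against 69.5% of all genes. Of these, 23 stood above that value in each of the 4 arrays. Signal of a probe set also depends on its own sequence, so values are compared between arrays for 1 probe set and not between genes.

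The collecting duct value lay within the anlage range for 17 of the 25 tested genes and outside it for 8, where 41.6% of all tested genes were outside. It lay above all 3 anlage arrays for 3 genes, Hoxd3, Hoxd9 and Hoxb3, where 17.3% of all tested genes did so. It lay below all 3 for 5 genes, Hoxa7, Hoxc4, Hoxd10, Hoxc6 and Hoxa9, where 24.3% of all tested genes did so. These counts moved with the scaling, and so did the shares over all genes. After median scaling, which gives every array 1 median, 1 Hox gene lay above (10.1% of all genes) and 5 below (20.4%). With the values as deposited 6 lay above (19.9%) and 2 below (19.8%). Without anlage array 1 the counts were 8 above (25.7% of all genes) and 7 below (47.5%). Hoxa5 was among those 7 through its other probe set, which was the brightest without that array. They were 5 above (27.8%) and 7 below (30.5%) without array 2, and 5 above (22.8%) and 6 below (28.5%) without array 3. Of the 25 genes 14 were higher in the collecting duct than the anlage mean, where 45.1% of all tested genes were, and 11 were lower, a split of 12 and 13 after median scaling and of 18 and 7 with the values as deposited.

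The differences ran from -1.59 (Hoxa7) to 2.22 (Hoxd3), with a median of 0.13 against -0.06 over all tested genes. Differences over 1 in either direction were found in 2 Hox genes, or 8.0%, against 11.6% of all tested genes. They were 1 above 1 and 1 below -1, where 4.64% and 6.99% of all tested genes lay. No Hox gene passed limma over all genes (0 of 25, adjusted p = 0.9999 for each), and 1, Hoxd3, had an unadjusted p under 0.05. Over all tested genes 1.18% had such a p and a higher value, as Hoxd3 did, and 2.23% such a p and a lower value, as no Hox gene did. In such pools, fewer cells of a type and less RNA per cell cannot be told apart.

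**Figure D1:**
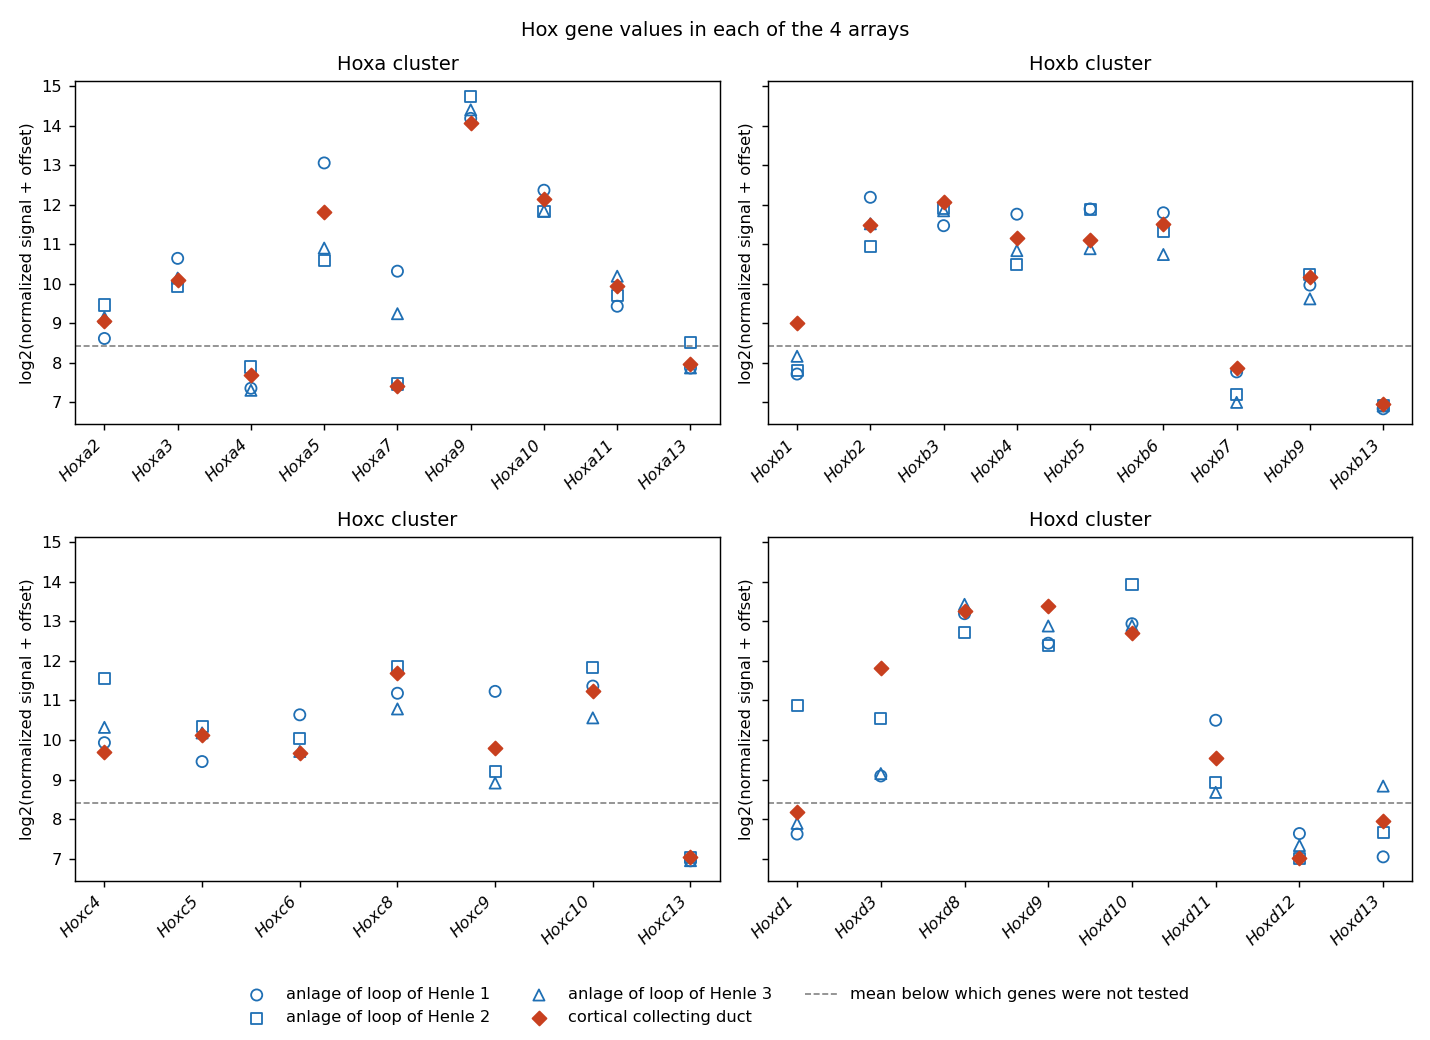
Value of each of the 33 Hox genes in each array, by cluster and in order of paralog number; the y axis is log2(normalized signal + 109.6), red diamonds are the collecting duct array and open blue symbols the 3 anlage arrays. The collecting duct diamond lies among the anlage symbols for most genes, Hoxd3 standing above and Hoxa7 at the bottom, and the 5 genes of groups 12 and 13 lie mostly under the dashed line at 8.416; heights of different genes are not comparable.

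The promoters of the genes at the ends of the range are shown because these 4 genes had the largest differences in either direction. RefSeq windows on the GRCm38.p6 build were found for 22 Hox genes, 15 of them tested, and the 250 bases before each start were read. Capitals mark the letters TTTATG or, on the other strand, CATAAA, a core bound by CDX homeodomain factors, which act upstream of Hox genes. The windows are those of Hoxd3 (chr2:74711743-74711992, plus strand), Hoxd9 (chr2:74697513-74697762, plus strand), Hoxa7 (chr6:52218574-52218823, minus strand) and Hoxc4 (chr15:103034145-103034394, plus strand).
Hoxd3: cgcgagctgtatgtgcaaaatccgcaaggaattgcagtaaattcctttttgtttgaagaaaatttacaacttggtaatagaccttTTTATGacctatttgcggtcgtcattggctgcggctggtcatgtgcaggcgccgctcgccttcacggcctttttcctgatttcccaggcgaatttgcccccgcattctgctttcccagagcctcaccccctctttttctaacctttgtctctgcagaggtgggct
Hoxd9: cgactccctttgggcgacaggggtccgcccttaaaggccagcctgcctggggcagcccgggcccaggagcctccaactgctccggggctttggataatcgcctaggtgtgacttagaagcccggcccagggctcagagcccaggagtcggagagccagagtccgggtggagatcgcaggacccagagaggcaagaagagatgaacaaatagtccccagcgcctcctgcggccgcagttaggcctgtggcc
Hoxa7: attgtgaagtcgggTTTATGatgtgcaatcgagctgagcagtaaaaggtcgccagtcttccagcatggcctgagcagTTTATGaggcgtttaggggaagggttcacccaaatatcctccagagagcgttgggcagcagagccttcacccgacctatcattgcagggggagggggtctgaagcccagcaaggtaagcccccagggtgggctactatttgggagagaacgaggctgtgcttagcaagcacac
Hoxc4: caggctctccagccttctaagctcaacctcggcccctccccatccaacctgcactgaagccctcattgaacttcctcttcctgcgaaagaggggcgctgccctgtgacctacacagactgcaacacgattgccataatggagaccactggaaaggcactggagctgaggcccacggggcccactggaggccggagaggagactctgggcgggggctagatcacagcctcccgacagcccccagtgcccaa
The CDX letters stood 165 bases before the start of Hoxd3 and 236 and 173 bases before that of Hoxa7, genes whose differences had opposite signs, and were not in the windows of Hoxd9 and Hoxc4. Over all they were in 5 of 24 Hox windows (20.8%) and in 10.8% of all windows of this length. The PBX-HOX letters TGATNNAT, searched on both strands, were in 4 of 24 Hox windows (16.7%) against 7.68%, and in none of the 4 printed. The MEIS letters TGACAG were in 2 of 24 (8.33%) against 15.9%, and the homeodomain palindrome TAATTA in 2 of 24 (8.33%) against 4.84%. The median GC content of the Hox windows was 58.6%, against 52.4% over all windows. CDX genes themselves were dim in the arrays, with Cdx1, Cdx2 and Cdx4 all below the limit of testing.

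Whether a gene passed the limit also depends on its probe set, so the counts by paralog group are a description with no test. All 9 genes of paralog groups 9 to 11 with a probe set were above the limit, in 36 of 36 values. None of the 5 genes of groups 12 and 13, which pattern the hindgut, the genital region and the ends of the limbs, reached it as a mean. Their values ran from 6.84 to 8.84, and 2 of 20 stood above 8.416, those of Hoxa13 in anlage array 2 (8.51) and of Hoxd13 in anlage array 3 (8.84). Of 19 genes of groups 1 to 8, 16 passed, and Hoxa4, Hoxb1 and Hoxb7 did not. Hoxa4 stood at 7.70 in the collecting duct and at 7.36, 7.90 and 7.31 in anlage arrays 1, 2 and 3, all under the limit. A probe set under the limit does not show that its transcript was absent. The genes nearest the limit were Hoxb1 (mean 8.18) below it and Hoxa7 (8.61) and Hoxd1 (8.64) above it. By class, the median difference was -0.03 in 6 genes of groups 1 to 3, 0.13 in 10 genes of groups 4 to 8 and 0.13 in 9 genes of groups 9 to 13.

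Hoxd3, a gene needed for the first neck vertebra, had the largest difference of the Hox genes. It stood at 11.82 in the collecting duct and at 9.09, 10.54 and 9.15 in anlage arrays 1, 2 and 3. The collecting duct value was above each anlage value, and array 2 was the nearest. The difference was 2.22 ± 0.74 (SE), 4.67-fold, with a 95% interval from 0.41 to 4.04 (limma, unadjusted p = 0.0239, 217th smallest of 12642 genes, adjusted p = 0.9999). Without anlage array 3 it was 1.98 (limma, unadjusted p = 0.066), and after median scaling 1.97 (unadjusted p = 0.0559). The mean of the collecting duct markers took the same order over these arrays, apart from the low pair, at 12.96 in the collecting duct and 10.25, 11.27 and 9.93 in anlage arrays 1, 2 and 3. Whether collecting duct cells in the anlage pools bear on the Hoxd3 values was not tested.

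Several probe sets of transcripts next to Hoxd3 also had their highest value in the collecting duct on the normalized scale. Hoxd3os1 is a long noncoding RNA gene on the opposite strand whose model overlaps that of Hoxd3 in RefSeq. Its brighter probe set stood at 14.65 in the collecting duct against 12.95, 13.14 and 12.52 in the anlage arrays, which lay close together. The difference was 1.78 ± 0.47 (SE), 3.44-fold, with a 95% interval from 0.62 to 2.94 (limma, unadjusted p = 0.00929, adjusted p = 0.9999). Its other probe set was dim, at 6.96 against 6.97, 7.15 and 8.09, and with the mean of both the difference was 0.67. Without anlage array 3 the difference was 1.58 (limma, unadjusted p = 0.0618), and after median scaling 1.44 (unadjusted p = 0.284).

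Hoxd4 shares its probe sets with Hoxd3 on this platform, so they were not tested. In one of them the collecting duct array stood at 10.35 against 10.26, 9.31 and 9.51, barely above the highest anlage array. In the signal as deposited, that probe set was lower in the collecting duct (1293.6) than in anlage array 1 (1348.02). In the other it stood at 8.83 against 7.27, 7.65 and 7.25, where all anlage values were under 8.416. Both may read Hoxd3 transcripts, so they are no separate measure of Hoxd4.

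**Figure D2:**
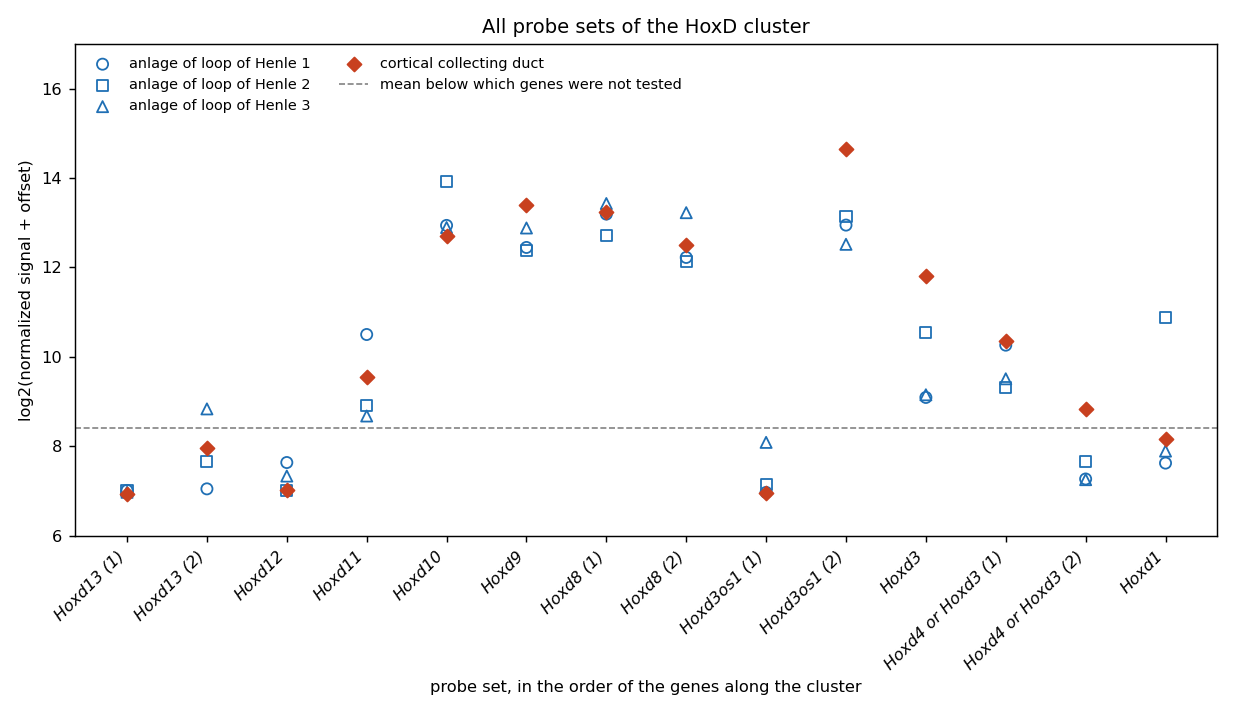
Values of all 14 probe sets of the HoxD cluster in each array, on the scale log2(normalized signal + 109.6), in the order of the genes along the cluster; numbers in brackets tell probe sets of 1 gene apart. The collecting duct array (red diamonds) stands clear of the anlage arrays at Hoxd3, at the brighter probe set of Hoxd3os1 and at the dimmer shared one of Hoxd4 and Hoxd3, and among or near them at Hoxd8, Hoxd10 and Hoxd11.

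On either side of this stretch the values differed less. Hoxd1 stood at 8.17 in the collecting duct and at 7.62, 10.88 and 7.89 in the anlage arrays, so that it passed the limit through anlage array 2 alone. Its difference was -0.63 ± 1.29 (SE), smaller than the anlage SD of 1.81. Hoxd8 stood at 13.25 against 13.19, 12.71 and 13.43, inside the anlage range. Its difference was 0.14 ± 0.50 (SE), with a 95% interval from -1.08 to 1.36, and its other probe set gave -0.02.

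The posterior HoxD genes, which act in the limb and in the trunk, had differences of both signs. Hoxd9 stood at 13.39 in the collecting duct against 12.45, 12.39 and 12.88, above each anlage array. Its difference was 0.82 ± 0.49 (SE), 1.76-fold (limma, unadjusted p = 0.144), and 0.48 after median scaling. Hoxd10 stood at 12.71 against 12.94, 13.93 and 12.89, below each anlage array but near arrays 1 and 3. Its difference was -0.55 ± 0.58 (SE), and -0.20 without anlage array 2. Neither difference passed the test, and after median scaling both genes lay inside the anlage range.

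The values of the group 11 genes overlapped between the structures. Hoxa11 stood at 9.94 in the collecting duct and at 9.43, 9.70 and 10.19 in the anlage arrays. Its difference was 0.17 ± 0.56 (SE), with a 95% interval from -1.20 to 1.54, and was close to 0 without anlage array 1. Hoxd11 stood at 9.55 against 10.50, 8.92 and 8.68, the collecting duct value falling between anlage array 1 and the others. Its difference was 0.18 ± 0.82 (SE), with a 95% interval from -1.83 to 2.20. It was 0.80, with the collecting duct above both remaining arrays, without anlage array 1, and -0.02 and -0.15 without array 2 or 3. These intervals leave room for differences of over 2-fold either way. Among the genes that work with them, Six2, a factor that keeps nephron progenitors undifferentiated, stood at 9.86 against 10.86, 11.10 and 9.82. Eya1 stood at 12.44 against 11.42, 13.69 and 11.39, and Gdnf at 11.69 against 11.89, 12.72 and 10.64. Of the 10 tested genes of that list 2 were higher and 8 lower in the collecting duct. The collecting duct lay below all anlage arrays for 4, where 24.3% of all tested genes did so. In that list 0 passed limma over all genes, and the median difference was -0.42. The largest differences were those of Meox1 (-1.41), Osr1 (-1.01), Six2 (-0.73) and Itga8 (-0.64).

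Hoxb7 was close to the floor of the measurement. Its only probe set of its own stood at 7.87 in the collecting duct and at 7.77, 7.20 and 7.0 in the anlage arrays, all under 8.416. A probe set that the platform gives to both Hoxb8 and Hoxb7 was brighter, at 10.91 against 10.79, 9.78 and 10.33. On this normalized scale the collecting duct array was the highest of the 4 in both, and anlage array 1 came next. The gap to anlage array 1 was smaller than the spread among the anlage arrays. In the signal as deposited, the Hoxb7 probe set was lower in the collecting duct (127.32) than in anlage array 1 (157.81). The shared probe set was nearly level there, at 1905.46 and 1869.03.

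The other genes of groups 9 and 10 differed by less than their SE in their brightest probe sets. Hoxa9, known for its part in blood stem cells, stood at 14.06 against 14.18, 14.73 and 14.40, just below the anlage range. Its difference was -0.38 ± 0.41 (SE), -0.74 after median scaling and -0.83 as an average over its probe sets. After median scaling, and with the values as deposited, Hoxa9 was not below all anlage arrays. The deposited signal was 15917.7 in the collecting duct and 15900 in anlage array 1. Hoxa10 stood at 12.14 against 12.36, 11.83 and 11.84, a difference of 0.13 ± 0.52 (SE) that was -0.09 after median scaling. Hoxc10, which acts in lumbar patterning, stood at 11.25 against 11.36, 11.83 and 10.56, with a difference of -0.01 ± 0.66 (SE). Hoxb9 stood at 10.17 against 9.97, 10.22 and 9.62, a difference of 0.24 ± 0.54 (SE). In each of these 3 genes the collecting duct value fell inside the anlage range. Hoxc9, a regulator of thoracic motor neuron identity, stood at 9.79 against 11.23, 9.21 and 8.91, and its difference of 0.01 ± 0.97 (SE) averaged over anlage arrays that lay on both sides of it. Without anlage array 1 the difference of Hoxc9 was 0.79.

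Hoxa7 and Hoxc4 had the lowest collecting duct values relative to the anlage. Hoxa7, a gene of thoracic patterning, stood at 7.42 in the collecting duct and at 10.32, 7.47 and 9.24 in the anlage arrays. The collecting duct array and anlage array 2 were both under 8.416 and nearly equal, while arrays 1 and 3 were well above. The difference was -1.59 ± 1.07 (SE; limma, unadjusted p = 0.189), and its size depends on the offset, from -2.13 with a smaller one to -0.95 with a larger one. Hoxa7 passed the limit only through arrays 1 and 3: without either of them it was under the limit, and without array 2 its difference, -2.29, is fixed by that selection. Hoxc4 stood at 9.69 against 9.93, 11.55 and 10.32, with anlage array 2 the highest. Its difference was -0.92 ± 0.76 (SE), and -0.41 without anlage array 2. That array had the highest 3' to 5' ratio of Gapdh, and the part of RNA quality in these values was not tested.

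Among the other middle and anterior genes, Hoxc6 stood at 9.68 against 10.64, 10.04 and 9.71, a difference of -0.45 ± 0.59 (SE), level with anlage array 3. Hoxb5 stood at 11.11 against 11.89, 11.87 and 10.89, a difference of -0.44 ± 0.63 (SE). Hoxb3, a hindbrain patterning gene, stood at 12.07 against 11.47, 11.90 and 11.84 in its brightest probe set. Its difference of 0.33 ± 0.51 (SE) was 0.08 after median scaling and -0.09 as an average over its probe sets. The other probe set of Hoxb3 stood at 9.28 against 9.71, 9.70 and 9.96, below all anlage arrays, a difference of -0.51. Hoxc8, which acts in brachial motor neurons, stood at 11.69 against 11.18, 11.87 and 10.79, a difference of 0.41 ± 0.62 (SE). Of these, by the brightest probe sets, Hoxb3 alone lay above all anlage arrays and Hoxc6 alone below them. Hoxa5, a gene needed for lung development, stood at 11.81 against 13.05, 10.58 and 10.90, a difference of 0.30 ± 1.02 (SE) inside a wide anlage range. The difference of Hoxa5 was -0.17 without anlage array 2, -0.0026 without array 3, and -0.35 as an average over probe sets. Without anlage array 1 its other probe set was the brightest, and the difference of that probe set was -1.28. In the probe set given here, the collecting duct value (11.81) lay above those of anlage arrays 2 and 3 (10.58 and 10.90). Hoxb6 stood at 11.50 against 11.79, 11.33 and 10.74, a difference of 0.22 ± 0.61 (SE). The collecting duct value of Hoxb6 was second to anlage array 1. Hoxb2 stood at 11.49 against 12.19, 10.93 and 11.52, a difference of -0.06 ± 0.65 (SE), and Hoxa3, which acts in thymus and parathyroid formation, stood at 10.08 against 10.64, 9.92 and 10.14. Hoxb4, which promotes blood stem cell expansion, stood at 11.16 against 11.76, 10.50 and 10.84, and Hoxc5 at 10.13 against 9.46, 10.33 and 10.18. The collecting duct value lay inside the anlage range in all 4 of these genes, by their brightest probe sets. Over the 4 probe sets of Hoxa3 the differences ran from -1.10 to 0.52. The lowest was that of a probe set at 8.04 against 9.24, 9.60 and 8.59, below all anlage arrays. Hoxa2, which sets the identity of the second branchial arch, stood at 9.07 against 8.62, 9.46 and 9.15, a difference of -0.01 ± 0.57 (SE). Hoxb1, a hindbrain gene that was not tested, stood at 9.01 in the collecting duct and at 7.72, 7.81 and 8.17 in the anlage arrays, the collecting duct value alone lying above 8.416.

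**Figure D3:**
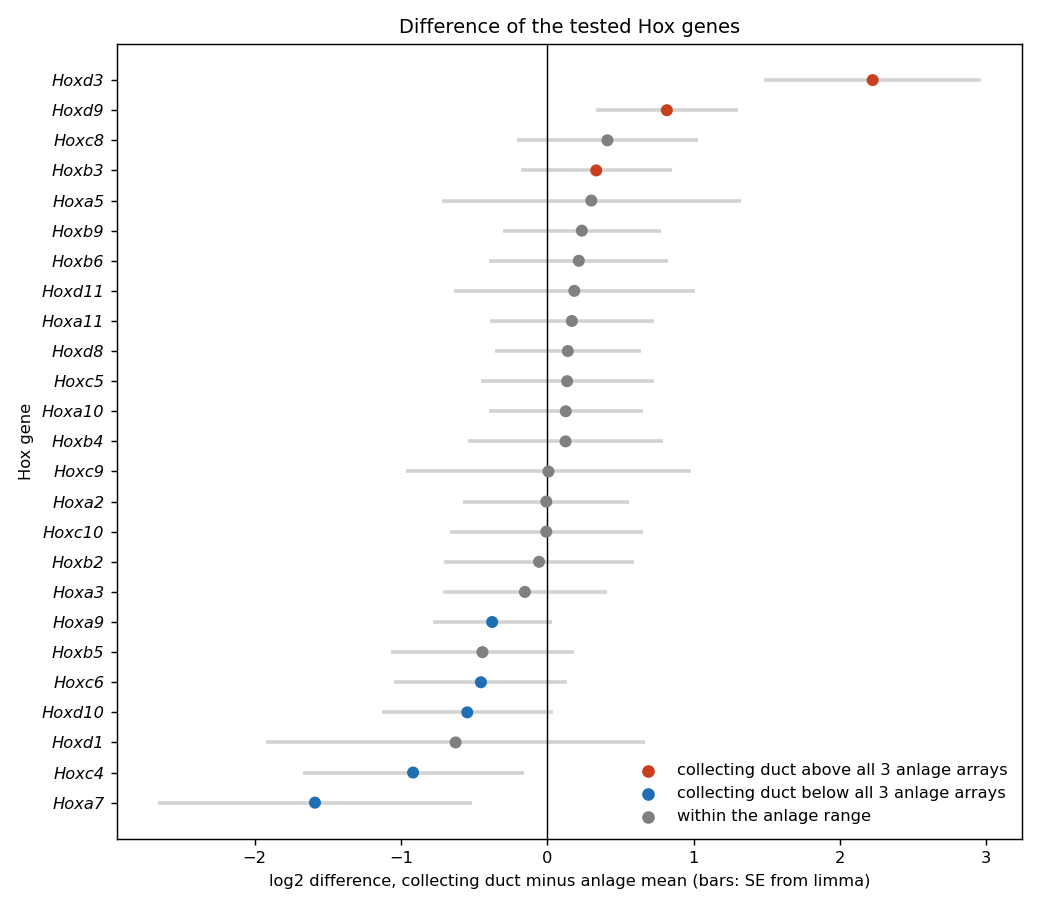
Log2 difference of the collecting duct array minus the mean of the 3 anlage arrays for the 25 tested Hox genes, with bars of 1 SE from limma on each side. Red and blue points mark genes whose collecting duct value lay above or below all 3 anlage arrays. The bars of all other genes cross 0, and so do those of Hoxb3, Hoxa9, Hoxc6 and Hoxd10. Hoxd3 at 2.22 is the farthest from 0.

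Probe sets of 1 gene often disagreed. Of 11 Hox genes with several probe sets, 8 had differences of both signs. The second probe set of Hoxa10 stood at 10.66 in the collecting duct against 11.18, 12.76 and 11.61, a difference of -1.19 where the brightest gave 0.13. The second of Hoxa5 stood at 10.34 against 10.99, 12.04 and 11.02, a difference of -1.01 where the brightest gave 0.30. In both cases the second probe set put the collecting duct below all anlage arrays and anlage array 2 highest, while the brightest put anlage array 1 highest. For Hoxa9 the second probe set stood at 9.42 against 11.71, 10.10 and 10.28, a difference of -1.28 in the same direction as the brightest. Over the 35 Hox probe sets above the limit, the collecting duct array lay below all anlage arrays in 11 (31.4%) and above them in 3 (8.57%), where 22.5% and 17.5% of all probe sets above the limit did so.

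**Figure D4:**
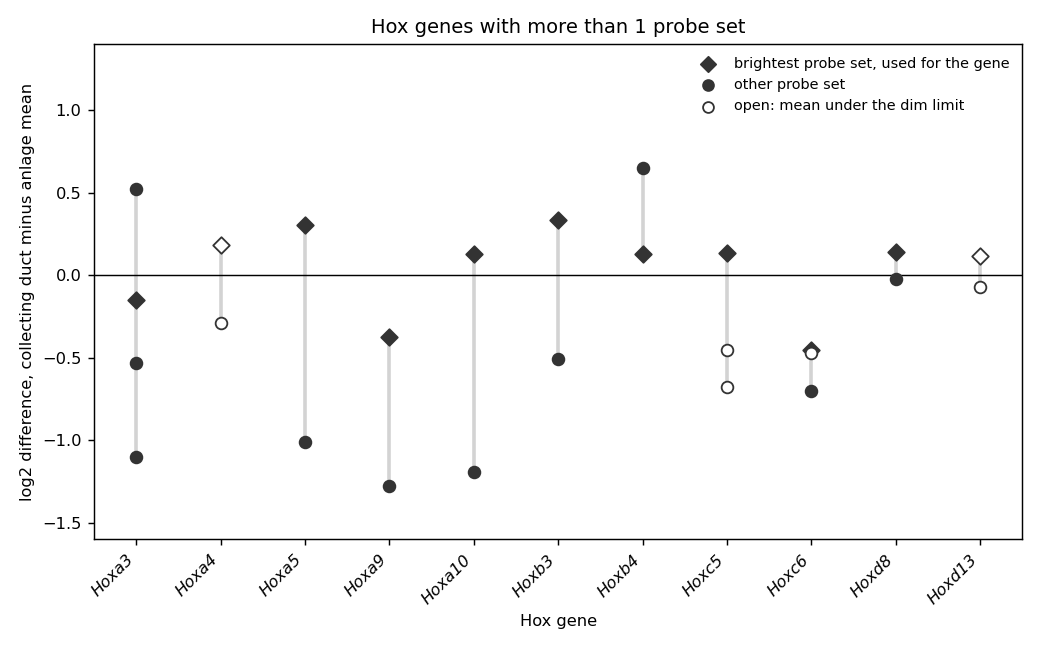
Log2 difference of the collecting duct array minus the anlage mean for each probe set of the 11 Hox genes with several; diamonds are the brightest probe set, used for the gene, and open symbols have a mean under 8.416. The points fall on both sides of 0 for 8 genes, the widest spreads being those of Hoxa3, Hoxa5 and Hoxa10.

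The absolute difference exceeded the anlage SD in 6 of 25 tested Hox genes (24.0%), against 39.9% of all tested genes. Among the anlage arrays, array 1 was the highest for 11 Hox genes, array 2 for 11 and array 3 for 3, where over all genes they were highest in 27.3%, 45.7% and 27.0%. Hoxa5, Hoxa7, Hoxc9 and Hoxd11 were among the 11 highest in array 1, the array with the lowest 3' to 5' ratio of Gapdh. Hoxc4, Hoxd1 and Hoxd10 were among the 11 highest in array 2, with the highest ratio. The part of RNA quality in these ranks was not tested. The median over the tested Hox genes was 11.16 in the collecting duct and 11.23, 10.88 and 10.56 in anlage arrays 1, 2 and 3.

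Transcripts for proteins that work with HOX factors on DNA, or that keep the clusters open or closed, showed no called difference. The TALE homeodomain proteins (PBX, MEIS, PKNOX and TGIF) bind beside HOX proteins, and 8 of 11 of their genes were tested. Of these 2 were higher and 6 lower in the collecting duct, 0 passed limma over all genes, and the median difference was -0.31. Pbx2 differed by -0.74, Tgif1 by -0.73, Pbx3 by -0.61 and Meis1 by -0.43. Polycomb proteins keep Hox genes silent, and of 14 tested genes for them 9 were higher, 5 lower and 0 called, with a median of 0.08. Jarid2 differed by 0.74, Cbx2 by 0.70, Phc3 by -0.56 and Phc1 by -0.47. Of 9 tested Trithorax-type genes, which keep Hox genes active, 4 were higher, 5 lower and 0 called, with a median of -0.17. Dpy30 differed by -0.82 and Kmt2a by 0.34.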

How the data were processed

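The deposited table held linear intensity values per probe set, from GCOS, the scanner maker's software, as the submitters' processing notes name it. Its version is not given in the sources used. With 2% trimmed from both tails, array means ran from 1499.91 to 1500.01, before any step taken here. Detection calls were not used here.

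The arrays were quantile normalized, 109.6 (the 25th percentile of the common distribution) was added and log2 taken. Then 64 control probe sets were left out, leaving 45037, of which 34945 had 1 gene symbol, 932 several and 9160 none. Each gene took its brightest probe set, and genes with a mean under 8.416 (the 40th percentile) were not tested. limma 3.58.1 in R 4.3.3 (lmFit, eBayes with trend, two-sided, Benjamini-Hochberg over 12642 genes) compared 1 array with 3, with 2 residual and 4.04 prior degrees of freedom. The spread of the anlage stood for that of the lone collecting duct array. An exact permutation test could not go below p = 0.25 and was not used. The number of arrays limits the precision.

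Members and gene lists were chosen with earlier results of these data known. Values per array are given for Hoxb7, Hoxa11, Hoxd11, genes of groups 9 to 11 and up to 10 tested Hox genes per direction by size of difference; the remaining Hox values, Hoxd3os1 and the motifs were chosen after values were seen. Up to 4 tested members of each list, taken from the 4 largest by difference, are named, besides Eya1, Gdnf and Mtx2. Platform symbols were matched by Entrez number to RefSeq (GRCm38.p6) for names, gene order and promoters. No build was named for the array.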

Additional observations from a re-analysis of the deposited data

How the results depend on the processing

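The 25 tested Hox genes were recomputed under 11 other settings. Limma called 0 Hox genes in every one of them, and over all genes 0 to 14 with 1 anlage array left out (14 without array 2). The count of Hox genes with the collecting duct above all anlage arrays, 3 as reported, was 1 after median scaling and 6 with the values as deposited. It was 7 of 33 genes with no filter on dim probe sets, and from 5 to 8 with 1 anlage array left out. Over all genes the share was 17.3% as reported, 10.1%, 19.9% and 18.2% in those settings, and from 22.8% to 27.8% with an array left out. The count below all of them, 5 as reported, was 2 with the values as deposited and from 6 to 7 with 1 anlage array left out. With each probe set fitted on its own it was 11 of 35 probe sets, some of them of the same gene. Over all genes that share was 24.3% as reported, 19.8% with the values as deposited, and from 28.5% to 47.5% with an array left out. Over all probe sets above the limit it was 22.5%. The median difference, 0.13 as reported, ran from -0.04 to 0.12 with 1 anlage array left out, and the number of Hox genes past the filter was 24 in each of those. Median scaling moved the median of all genes from -0.06 to -0.24, and the Hox median then lay 0.20 above it, against 0.19 as reported. That gap was 0.00018 with the mean of all probe sets, 0.022 with each probe set on its own, and 0.31, -0.03 and 0.00015 without anlage array 1, 2 and 3, so the Hox median above that of all genes depends on these choices. The difference of Hoxd3 ran from 1.88 to 2.51. Of the 25 genes 11 kept their sign in every setting that tested them, and 14 changed it in at least 1. Among these were Hoxa10 (-0.53 with the mean of all probe sets) and Hoxa5 (-1.28 without anlage array 1). Where a setting used 1 probe set per gene, the brightest was chosen anew. Without anlage array 1 that was the other probe set of Hoxa5, so -1.28 is not a value of the reported probe set. The causes of the other changes were not tested. No paired analysis was possible because the collecting duct array shares its replicate number with 1 anlage array only.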

Other observations

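Genes that flank the Hox clusters, and homeobox genes related to them, were read as neighbours that are not cluster members. Of 9 tested flanking genes 3 were higher and 6 lower in the collecting duct. Among them 0 exceeded all 3 anlage arrays and 3 were under all of them, where 17.3% and 24.3% of all tested genes were. Of the flanking genes 0 passed limma over all genes, and their median difference was -0.08. Mtx2, a mitochondrial membrane gene beyond Hoxd1, stood at 11.55 against 11.25, 11.98 and 11.65 in anlage arrays 1, 2 and 3, inside their range. Evx2, the homeobox gene beyond Hoxd13, stood at 8.70 against 8.95, 8.57 and 8.78, close to the limit of testing, and the other 7 of 8 ParaHox and Evx genes were under it. Skap2, an adaptor gene beyond the HoxA cluster, stood at 11.17 against 11.04, 13.02 and 12.38, a difference of -0.98.

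Noncoding transcripts of the other clusters were measured by 2 genes. Hoxb5os, of the HoxB cluster, stood at 14.89 in the collecting duct against 15.62, 14.60 and 15.03, a difference of -0.20 ± 0.47 (SE). Hoxa11os, of the HoxA cluster, stood at 10.28 against 9.15, 10.79 and 10.58, a difference of 0.10 ± 0.78 (SE) with a 95% interval from -1.80 to 2.0. In both genes the collecting duct value fell inside the anlage range.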
